A study of Homo sapiens with 18 samples.

Results

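PTK2, BIN1, LEPROT, TBC1D5 and SESN3 are 5 of the 57500 genes counted in these libraries. They were chosen by symbol, with the results known, as genes that differed from control cells mainly in the line carrying a hairpin against NR4A2. PTK2 and BIN1 were higher in that line, whereas LEPROT, TBC1D5 and SESN3 were lower. Because the comparisons of the lines were used to choose them, those values are given for the 5 genes as a description without a test. Their response to LPS within each line was not used in the choice and was tested.

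The 5 genes encode proteins of cell adhesion, membrane shape, receptor sorting and nutrient sensing. PTK2 encodes focal adhesion kinase (FAK), a tyrosine kinase that relays signals from integrins where a cell grips its surroundings. BIN1 encodes a BAR domain protein that bends and tubulates membranes during endocytosis. LEPROT encodes an endosomal membrane protein that lowers the amount of leptin and growth hormone receptor at the cell surface, and TBC1D5 a GTPase-activating protein for RAB7 that binds retromer, the coat that returns cargo from endosomes. SESN3 encodes a sestrin, a stress-induced protein that restrains mTORC1 (the growth kinase complex switched on by amino acids) through the GATOR complexes.

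RNA was sequenced from THP-1, a human monocytic leukaemia line, in 3 stable lines made with lentiviral particles. The control line carried a non-targeting short hairpin RNA (shNT), and the others a hairpin against NR4A2 (shNR4A2) or NR4A3 (shNR4A3), nuclear receptors induced early in inflammation. Each line was left unstimulated or given LPS (lipopolysaccharide, the bacterial wall component sensed by TLR4) at 2.5 μg/ml for 2 h. Each of the 6 groups had 3 libraries, 18 in all, of polyadenylated RNA with 16171161 to 23929138 reads counted on genes. All cells, the controls included, had been transduced, and whether a line was 1 clone or carried several hairpins is not given in the sources used here. The study describes the 3 libraries of a group as independent experiments. Levels are given as RPKM, the reads per kilobase of merged exon relative to library size, with library sizes scaled by TMM (trimmed mean of M-values), and groups as mean ± SD (n = 3).

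The targeted transcripts were checked first. NR4A2 was at 1.07, 0.746 and 0.990 RPKM in the shNT control libraries and at 0.466, 0.422 and 0.592 in those of shNR4A2. With LPS it was at 18.4, 21.3 and 15.6 RPKM in shNT cells and at 6.57, 8.09 and 4.62 in shNR4A2 cells. The shNR4A2 libraries were thus below every shNT library in both states, at 52.8% of the shNT mean without LPS and 34.8% with it. NR4A3 was at 0.143, 0.182 and 0.124 RPKM in shNT control libraries and at 0.0429, 0.0272 and 0.00833 in those of shNR4A3, the latter resting on 9 counts in all. With LPS it was at 9.16, 9.22 and 9.72 RPKM in shNT and 5.46, 5.29 and 5.16 RPKM in shNR4A3 libraries. In shNR4A2 cells NR4A3 was at 157% of the shNT mean without LPS and 111% with it, and the libraries overlapped. In shNR4A3 cells NR4A2 was at 82.4% of the shNT mean without LPS and 77.6% with it, and the libraries overlapped. NR4A2 was thus lowest in the shNR4A2 line in both states, without overlap with either other line.

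The labelled cell type was checked against 12 markers of monocytes and myeloid cells, 10 of which were above 1 RPKM in every library. The exceptions were CD68, with a lowest value of 0.626 RPKM, and MPO, with one of 0.647 RPKM. All 5 markers each of T cells, epithelial cells, fibroblasts and erythroid cells were below 1 RPKM in every library. Their summed levels ran from 0.0979 to 0.407 RPKM for T cells (CD8A the most abundant), 0.231 to 0.705 for epithelial cells (KRT8), 0.316 to 0.514 for fibroblasts (PDGFRB) and 0 to 0.257 for erythroid cells (KLF1). Of the 5 B cell markers, summing to 1.37 to 3.30 RPKM, MS4A1 and CD22 were below 0.1 RPKM in every library and PAX5 was the most abundant. PAX5 moved with the line, at a mean of 1.60 RPKM in shNT, 1.10 in shNR4A2 and 0.438 in shNR4A3 control cells. Some monocyte markers also moved with the line. LYZ, the lysozyme gene, was at a mean of 48.8 RPKM in shNT, 156 in shNR4A2 and 233 in shNR4A3 control cells. CD14, a co-receptor for LPS, was at 5.75, 12.7 and 10.6 RPKM, and CSF1R at 21.6, 36.7 and 43.8 RPKM in the same order. Other markers went the other way in shNR4A2. ELANE was at 1057, 805 and 1123 RPKM and AZU1 at 788, 616 and 737 RPKM in the same order. CEBPA and MPO were also lowest in shNR4A2 among the control cells. The summed level of the 12 myeloid markers, led by ELANE, was 2391, 2085 and 2684 RPKM. LYZ and CSF1R were thus highest in shNR4A3, and the part of these markers in the values of the 5 genes was not tested. In bulk RNA, fewer cells of a type cannot be told apart from less RNA per cell.

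PTK2 (ENSG00000169398, GRCh38 chromosome 8, 140657900 to 141002216, minus strand) was a low transcript in control cells and was several times higher in shNR4A2. The shNT libraries held 0.439, 0.427 and 0.481 RPKM without LPS and 0.424, 0.479 and 0.577 RPKM with it. Those of shNR4A2 held 1.97, 1.75 and 1.71 RPKM without LPS and 2.42, 1.93 and 2.09 RPKM with it. Every shNR4A2 library was therefore at least at 1.71 RPKM, and no other library was above the 0.650 RPKM of 1 shNR4A3 control library. Libraries of shNR4A3 held 0.394, 0.529 and 0.650 RPKM without LPS and 0.539, 0.518 and 0.562 RPKM with it, overlapping those of shNT in both states. The log2 fold change of shNR4A2 over shNT was 2.02 (SE 0.129) without LPS and 2.12 (SE 0.149) with it, a 4.05-fold and a 4.36-fold difference. That of shNR4A3 over shNT was 0.22 (SE 0.188) and 0.13 (SE 0.157). The shNT values rest on 107 to 162 counts per library and those of shNR4A2 on 488 to 688. In the rank order of the genes tested over the 6 groups, PTK2 stood at percentile 19.1 in shNT control and 40.1 in shNR4A2 control cells.

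BIN1 (ENSG00000136717, GRCh38 chromosome 2, 127048027 to 127107355, minus strand) had the same direction but was not confined to 1 knockdown line. The shNT libraries held 1.25, 1.16 and 1.07 RPKM without LPS and 1.56, 1.21 and 1.31 RPKM with it. Those of shNR4A3 held 2.64, 2.26 and 2.20 RPKM without LPS and 2.42, 2.76 and 2.19 RPKM with it. Those of shNR4A2 held 4.94, 4.15 and 4.48 RPKM without LPS and 5.83, 4.02 and 4.95 RPKM with it. The 3 lines formed 3 steps that did not overlap, with shNR4A3 between shNT and shNR4A2 in both states. The log2 fold change over shNT was 1.97 (SE 0.128) without LPS and 1.86 (SE 0.162) with it in shNR4A2 cells. It was 1.03 (SE 0.136) and 0.85 (SE 0.142) in shNR4A3 cells. As shares of the shNT mean, BIN1 stood at 390% in shNR4A2 and 205% in shNR4A3 control cells.

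**Figure D1:**
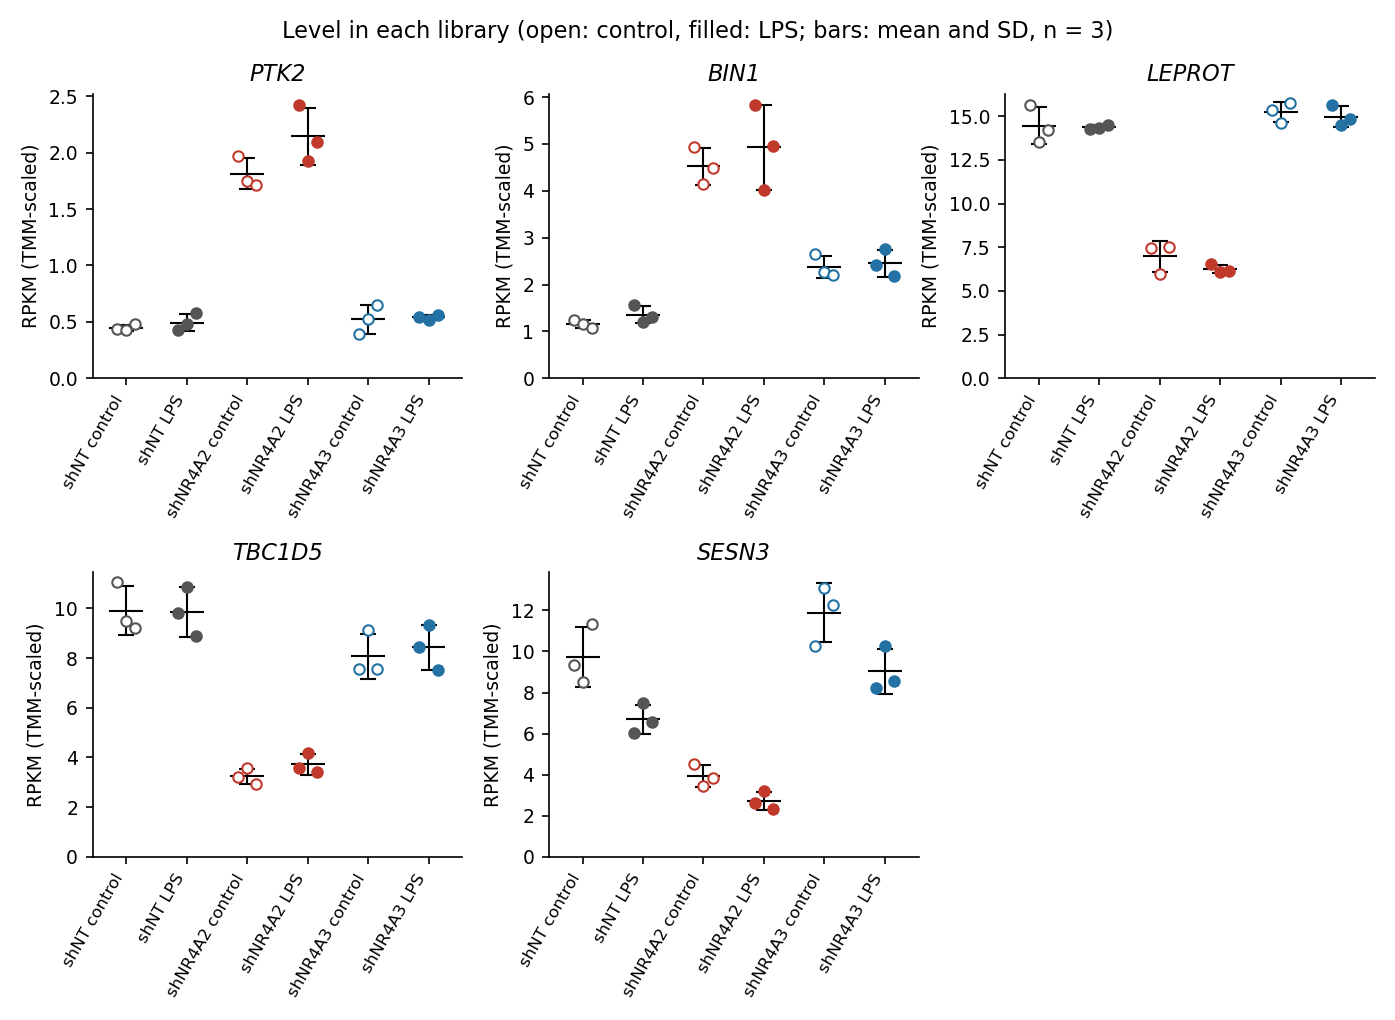
RPKM of each of the 5 genes in every library (open circles control, filled circles LPS, black bars the mean and SD of 3 libraries), by line and state, each panel with its own axis from 0. The shNR4A2 libraries stand apart in every panel, above the others for PTK2 and BIN1 and below them for LEPROT, TBC1D5 and SESN3, and for BIN1 those of shNR4A3 lie between.

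LEPROT (ENSG00000213625, GRCh38 chromosome 1, 65420587 to 65436007, plus strand) was the most highly expressed of the 5 genes per length in every group and fell to below 50% of its control level in shNR4A2 cells. The shNT libraries held 15.6, 13.5 and 14.2 RPKM without LPS and 14.3, 14.3 and 14.5 RPKM with it. Those of shNR4A2 held 7.45, 5.97 and 7.51 RPKM without LPS and 6.53, 6.10 and 6.16 RPKM with it. Those of shNR4A3 held 15.3, 14.6 and 15.7 RPKM without LPS and 15.6, 14.5 and 14.8 RPKM with it. All 6 libraries of shNR4A2 were below 8 RPKM and the 12 others were above 13 RPKM, with shNT and shNR4A3 overlapping. The log2 fold change of shNR4A2 over shNT was -1.04 (SE 0.117) without LPS and -1.19 (SE 0.0848) with it. That of shNR4A3 was 0.07 (SE 0.0883) and 0.06 (SE 0.0740).

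LEPROT begins where LEPR, the gene of the leptin receptor, begins, and RefSeq lists for LEPR an entry with the same promoter window. The 169 bases of it that lie before any exon of GENCODE 29 are shown because the genes share them while their levels differed, and capitals mark the letters GGGCGG, the GC box (RefSeq, GRCh38.p14, plus strand, chr1:65420418-65420586).
LEPROT: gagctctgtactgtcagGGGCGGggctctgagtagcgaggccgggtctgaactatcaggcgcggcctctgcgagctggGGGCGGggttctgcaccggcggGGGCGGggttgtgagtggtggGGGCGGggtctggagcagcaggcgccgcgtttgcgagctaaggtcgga
This stretch holds 4 GC boxes on the printed strand. LEPR was at 0.708, 0.728 and 0.630 RPKM in shNT control libraries and at 0.474, 0.368 and 0.552 in those of shNR4A2. Its log2 fold change was -0.55 (SE 0.178, adjusted p = 0.0916 by edgeR's quasi-likelihood test with Benjamini-Hochberg adjustment) without LPS and -0.30 (SE 0.176, adjusted p = 0.348 by the same edgeR test) with it. With the replicate number as a block, LEPR passed the edgeR test without LPS, at -0.56 (adjusted p = 0.0207), as it did with all 18 libraries in 1 fit (adjusted p = 0.0349). In shNR4A2 over shNR4A3, LEPR was at -0.66 without LPS (SE 0.188, adjusted p = 0.0860 by edgeR) and -0.66 with it (SE 0.170, adjusted p = 0.0883), without overlap. It passed there in both states by DESeq2 (adjusted p = 0.0366 and 0.0254), with the block (0.00837 and 0.00577) and in 1 fit (0.0193 and 0.0167). The merged exons of the genes share 165 bases, 3.2% of those of LEPROT, and LEPR was at a level of less than 1 RPKM. LEPROTL1, the paralog of LEPROT, had a log2 fold change of 0.14 (SE 0.104, adjusted p = 0.496 by edgeR's quasi-likelihood test) without LPS and 0.21 (SE 0.0870, adjusted p = 0.179) with it, the latter passing the test with the block (adjusted p = 0.0315). The paralog had values above 0 in both states, where LEPROT was lower.

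TBC1D5 (ENSG00000131374, GRCh38 chromosome 3, 17157162 to 18444817, minus strand) had the strongest decrease of the 5 genes in shNR4A2 over shNT cells. The shNT libraries held 11.1, 9.48 and 9.19 RPKM without LPS and 9.80, 10.9 and 8.89 RPKM with it. Those of shNR4A2 held 3.22, 3.56 and 2.94 RPKM without LPS and 3.56, 4.18 and 3.42 RPKM with it. Those of shNR4A3 held 7.57, 9.12 and 7.54 RPKM without LPS and 8.43, 9.34 and 7.54 RPKM with it. The mean of shNR4A2 was 32.7% of the shNT mean without LPS and 37.7% with it, below every other library. The shNR4A3 control libraries lay just below those of shNT without overlap, the nearest pair at 9.12 and 9.19 RPKM, and with LPS the groups overlapped. The log2 fold change of shNR4A2 over shNT was -1.61 (SE 0.112) without LPS and -1.40 (SE 0.113) with it, and that of shNR4A3 was -0.30 (SE 0.103) and -0.22 (SE 0.105).

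RefSeq gives TBC1D5 a pair of promoter windows that differ in base composition, with 74.8% and 44.4% of G and C in their 250 upstream bases. The part of the GC-rich window outside exons of GENCODE 29 is shown as the contrast to LEPROT, since it is as rich in G and C and has no GC box and so no capitals (RefSeq, GRCh38.p14, minus strand, chr3:17742749-17742881).
TBC1D5: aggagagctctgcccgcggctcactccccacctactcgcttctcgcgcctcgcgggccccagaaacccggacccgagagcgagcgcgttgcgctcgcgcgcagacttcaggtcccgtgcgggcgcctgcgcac
The promoter windows of 4 of the 5 genes were in the RefSeq table and were searched for 3 motifs on both strands of the 250 bases before the RefSeq start. Both TBC1D5 windows (chr3:17740908-17741157 and 17742632-17742881) lie within the deposited span of the gene. That span ends at 18444817 on the minus strand, and the bases beyond that end were not searched. The letters AAAGGTCA, the NBRE that NR4A receptors bind as monomers, and their core AGGTCA, which lies within the NBRE, were in none of the windows of BIN1, LEPROT, TBC1D5 and SESN3. Of 35116 windows of the same length, 1.05% held the NBRE and 12.1% the core. The GC box GGGCGG was in 42.6% of all windows, 4 times in that of BIN1, 1 pair of them overlapping, 6 times in that of LEPROT, and in none of those of TBC1D5 and SESN3. The G and C content was 75.6% for BIN1, 73.6% for LEPROT and 42.8% for SESN3, against a median of 58.0% over all windows. BIN1, which was higher in shNR4A2 cells, and LEPROT, which was lower, thus both held the GC box in these windows. In the window of BIN1, 201 of the 250 bases lay in exons of GENCODE 29. The 49 bases outside them held 0 GC boxes, against 4 in the 169 bases shown for LEPROT.

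SESN3 (ENSG00000149212, GRCh38 chromosome 11, 95165513 to 95232541, minus strand) differed both with the line and with LPS. The shNT libraries held 9.33, 8.52 and 11.3 RPKM without LPS and 6.05, 7.47 and 6.57 RPKM with it. Those of shNR4A2 held 4.51, 3.43 and 3.83 RPKM without LPS and 2.61, 3.21 and 2.33 RPKM with it. Those of shNR4A3 held 10.3, 13.1 and 12.3 RPKM without LPS and 8.23, 10.3 and 8.57 RPKM with it. In order of the mean, the groups ran from shNR4A2 with LPS (2.72 ± 0.449 RPKM) through shNR4A2 control (3.92 ± 0.546), shNT with LPS (6.70 ± 0.719), shNR4A3 with LPS (9.03 ± 1.10) and shNT control (9.73 ± 1.45) to shNR4A3 control (11.9 ± 1.44). Only the last 3 of these overlapped with a neighbour in that order. The log2 fold change of shNR4A2 over shNT was -1.30 (SE 0.134) without LPS and -1.30 (SE 0.134) with it. In shNR4A3 cells the direction was the opposite, at 0.29 (SE 0.117) without LPS, where the libraries overlapped those of shNT, and 0.43 (SE 0.111) with it, where they did not.

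**Figure D2:**
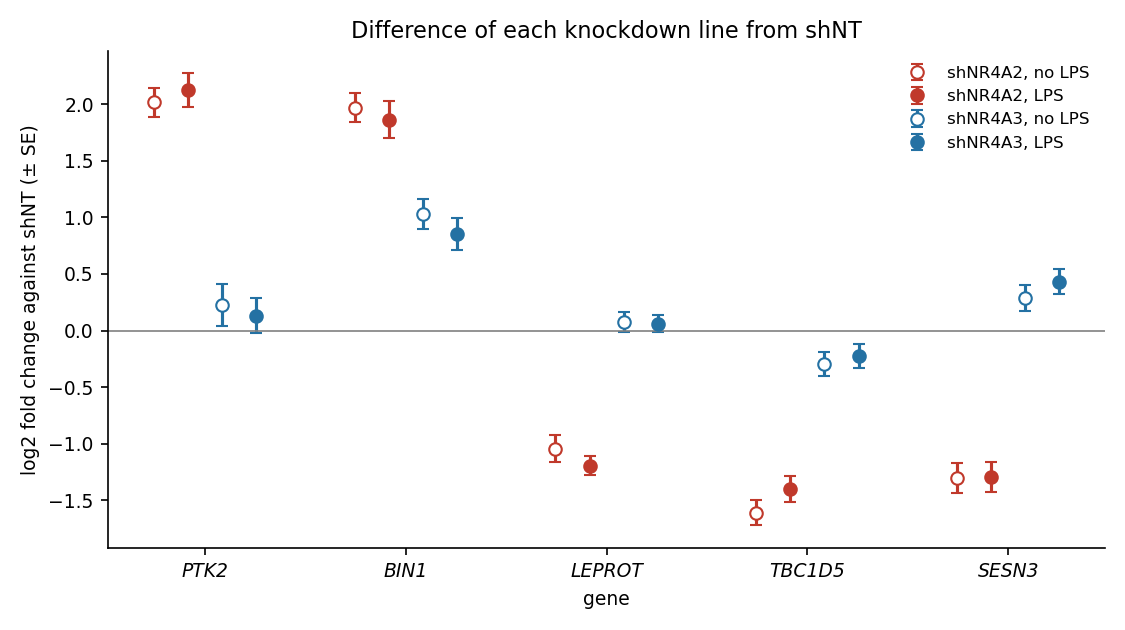
Log2 fold change of each gene over shNT (points, with bars of 1 standard error) in shNR4A2 (red) and shNR4A3 (blue), without LPS (open) and with it (filled). The shNR4A2 values lie beyond 1 in size for all 5 genes, and BIN1 is the only one with shNR4A3 values near 1.

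The share of all genes called gives the background of the comparisons that chose the 5 genes. By edgeR's quasi-likelihood test with Benjamini-Hochberg adjustment over all genes, 573 of 15800 genes (3.63%) were higher and 446 (2.82%) lower in shNR4A2 than in shNT cells without LPS. With LPS, 672 of 15590 (4.31%) were higher and 413 (2.65%) lower. For shNR4A3 over shNT, 7.23% of 15322 genes were called without LPS (3.91% higher, 3.32% lower) and 6.45% of 15578 with it (3.99% higher, 2.46% lower). For shNR4A2 over shNR4A3, 3.08% of 15584 were called without LPS (1.94% higher, 1.14% lower) and 2.33% of 15539 with it (1.27% higher, 1.06% lower). All 5 genes had libraries of shNR4A2 that overlapped those of neither other line. Over all genes tested, shNR4A2 lay above shNT without overlap for 12.7% and below it for 13.4% without LPS, and for 13.8% and 13.9% with LPS. Against shNR4A3 the shares were 10.0% and 9.54% without LPS and 11.6% and 11.6% with it. For shNR4A3 over shNT, as in the steps of BIN1, they were 13.1% and 12.6% without LPS and 13.4% and 14.0% with it. Genes called the same way in both states numbered 372 higher and 241 lower of 14762 tested throughout, and 51 and 53 of these also differed that way from shNR4A3 in both states. Against shNR4A3, the log2 fold changes of shNR4A2 without and with LPS were 1.79 and 1.99 for PTK2, 0.94 and 1.01 for BIN1, -1.12 and -1.25 for LEPROT, -1.31 and -1.18 for TBC1D5, and -1.59 and -1.73 for SESN3. BIN1 had the smallest of these in size and SESN3 the largest among the genes that fell. All comparisons with shNT of 1 state share its 3 libraries. With the replicate number as a block, the edgeR test called 3733 genes without LPS and 4385 with it, in place of 1019 and 1085. These were 23.6% of genes without LPS and 28.1% with it (15.2% higher, 13.0% lower).

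The levels of the 5 genes were correlated more closely across groups than within them. Over the 18 libraries, Pearson's r of log2 CPM (library-size-scaled counts) was 0.87 between PTK2 and BIN1, -0.96 between PTK2 and LEPROT, and 0.93 between LEPROT and TBC1D5. After the group means were taken out, r over the 10 pairs of genes ran from -0.30 to 0.39, and whether it differed from 0 was not tested. The first set of values restates the differences between lines that chose the genes.

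Whether LPS changed the 5 genes was a question their choice had not used. SESN3 was the 1 gene of the 5 to respond, and it fell in all 3 lines. The change in shNT cells, by edgeR's quasi-likelihood test and Benjamini-Hochberg adjustment, was -0.54 in log2 (SE 0.113, adjusted p = 0.00317), where 24.9% of 15711 genes were called (11.6% higher, 13.3% lower). By the same edgeR test it was -0.53 (SE 0.155, adjusted p = 0.0296) in shNR4A2, where 19.3% of 15772 genes were called (9.23% higher, 10.1% lower). In shNR4A3 it was -0.39 (SE 0.116, adjusted p = 0.0261 by edgeR), where 28.1% of 15342 genes were called (13.1% higher, 15.0% lower). All 3 LPS libraries lay below all 3 control libraries in each line, as was so for 21.0%, 18.9% and 23.4% of the genes tested in the 3 lines in the same order. The reverse, all LPS libraries above, held for 18.9%, 17.3% and 20.3%. In shNR4A3 the nearest LPS and control libraries of SESN3 were barely apart, at 10.276 and 10.282 RPKM. A decrease of 1.45-fold in shNT thus went with one of 1.45-fold in shNR4A2, at a level that was already 2.47-fold lower. In shNR4A2 and shNR4A3 the call did not pass without any 1 of 4 libraries each, while the direction was kept. In shNR4A2 the log2 fold change was -0.42 (edgeR adjusted p = 0.126) without control replicate 1, -0.55 (0.0661) without control replicate 3, -0.49 (0.106) without LPS replicate 1 and -0.42 (0.121) without LPS replicate 3. In shNR4A3 it was -0.32 (edgeR adjusted p = 0.0935) and -0.37 (0.0877) without control replicates 2 and 3, and -0.33 (0.10) and -0.35 (0.108) without LPS replicates 1 and 3. In shNT cells the call was kept with each library left out.

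The other 4 genes did not pass the test with LPS in any line, by edgeR or by DESeq2, and none had an unadjusted edgeR p under 0.05. For PTK2 the edgeR log2 fold change was 0.14 (95% interval -0.21 to 0.49) in shNT, 0.24 (-0.06 to 0.54) in shNR4A2 and 0.05 (-0.37 to 0.47) in shNR4A3. For BIN1 it was 0.23 (-0.08 to 0.55), 0.12 (-0.21 to 0.45) and 0.05 (-0.24 to 0.35) in the same order. These intervals leave room for rises of up to about 0.5 in log2. For TBC1D5 it was -0.01 (-0.22 to 0.21), 0.20 (-0.09 to 0.48) and 0.07 (-0.17 to 0.31), and for LEPROT -0.01 (-0.19 to 0.18), -0.16 (-0.45 to 0.13) and -0.02 (-0.21 to 0.17). These values depend on the scaling. As TPM (per-length shares of each library without TMM), LEPROT was 56.9 ± 4.95 in shNT control and 48.7 ± 1.34 in shNT LPS libraries, which did not overlap. In the same groups TBC1D5 was at 39.0 ± 3.71 and 33.5 ± 4.43 TPM, with overlap. PTK2 was at 1.77 and 1.67 TPM but at 0.449 and 0.493 RPKM. With library totals in place of TMM the log2 fold change of LEPROT in shNT was -0.18 (adjusted p = 0.119 by edgeR). That scaling put the median log2 fold change of all genes at -0.19 in shNT, -0.23 in shNR4A2 and -0.21 in shNR4A3, against -0.01, -0.02 and -0.01 with TMM, and moved the genes called in shNT from 1820 higher and 2089 lower to 1109 higher and 4158 lower. It moved those in shNR4A2 from 1455 and 1595 to 1009 and 3528, and those in shNR4A3 from 2007 and 2305 to 1317 and 4494.

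**Figure D3:**
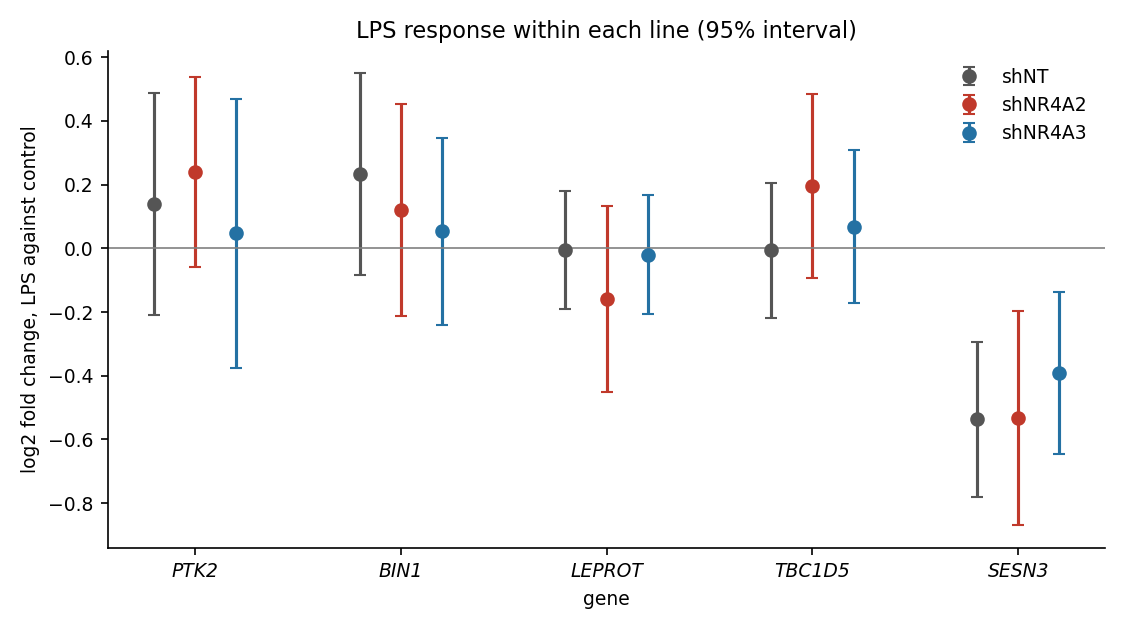
Log2 fold change of LPS over control within shNT (grey), shNR4A2 (red) and shNR4A3 (blue) for each gene, with 95% intervals from edgeR. The 3 intervals of SESN3 lie wholly below 0, and those of the other genes all include it.

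Whether the LPS response differed between shNR4A2 and shNT cells was read from the interaction of line and LPS, tested over all genes. The difference in log2 fold change was 0.01 (95% interval -0.42 to 0.44) for SESN3, 0.11 (-0.30 to 0.52) for PTK2, -0.11 (-0.55 to 0.33) for BIN1, -0.15 (-0.46 to 0.16) for LEPROT and 0.21 (-0.14 to 0.55) for TBC1D5. For the 5 genes these values are a description without a test. They amount to the difference between shNR4A2 over shNT with LPS and without it, the comparisons used to choose the genes. Over all 16674 genes the edgeR test called 0 genes (0%), with 365 at an unadjusted p under 0.05, and 3 by DESeq2, 29 without a filter on low counts and 8 with the replicate block. The intervals of the 5 genes do not reach a difference of 1 in log2, from which no conclusion is drawn for genes chosen by those comparisons.

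The genes that work with each of the 5 were read from lists of their pathways, against the 6.45% of genes called in shNR4A2 over shNT without LPS and 6.96% with it. Of 29 tested genes of FAK signalling, 1 rose and 1 fell in each state, with a median log2 fold change of 0.14 and 0.15 against 0.00 over all genes. The one that fell was PTPN12, a tyrosine phosphatase that acts on focal adhesion proteins. It was at 34.4, 28.5 and 31.9 RPKM in shNT and 21.3, 15.3 and 20.1 RPKM in shNR4A2 control libraries, which did not overlap. The log2 fold change of PTPN12 was -0.74 (SE 0.128, adjusted p = 0.00580 by edgeR's quasi-likelihood test) without LPS and -0.50 (SE 0.117, adjusted p = 0.0346) with it, the latter not passing with LPS libraries 1, 2 or 3 of shNT or 3 of shNR4A2 left out (adjusted p from 0.0767 to 0.118 by edgeR). In shNR4A3 cells PTPN12 had 0.08 (SE 0.107) and 0.27 (SE 0.102). The one that rose was ARHGAP26, a GTPase-activating protein that binds FAK, at 0.68 (SE 0.175, adjusted p = 0.0422 by edgeR) and 0.84 (SE 0.157, adjusted p = 0.0143). In shNR4A3 ARHGAP26 had 0.31 (SE 0.124) and 0.56 (SE 0.169), and shNR4A2 over shNR4A3 did not pass (edgeR adjusted p = 0.271 and 0.289). There it passed with LPS under the replicate block (edgeR adjusted p = 0.0114), and without LPS when shNR4A2 control 2 was left out (0.0474). Without LPS the call of ARHGAP26 was lost on leaving out shNT control 2 or 3 or shNR4A2 control 1 or 3 (edgeR adjusted p from 0.0633 to 0.146), and with LPS on leaving out shNR4A2 LPS 1 (0.0531). PTK2B, the paralog of PTK2 that predominates in blood cells, had 0.25 (SE 0.122, adjusted p = 0.273 by edgeR) and 0.26 (SE 0.114, adjusted p = 0.217). With the replicate block PTK2B passed in both states (edgeR adjusted p = 0.00951 and 0.00384), and 12 genes of the list rose and 1 fell without LPS where 12.1% of all genes rose and 11.5% fell. With LPS 11 of the list rose and 2 fell under the block, where 15.2% of all genes rose and 13.0% fell. DESeq2 called 5 genes of the list with LPS, where its count over all genes was within 1.5-fold of that of edgeR. Per length PTK2B was far above PTK2, at 37.8 ± 4.54 RPKM against 0.449 ± 0.0282 RPKM in shNT control cells.

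Of 28 tested genes of BAR domain and clathrin coat proteins, 0 rose and 1 fell without LPS by edgeR, and 1 rose and 1 fell with it. DESeq2 called 3 without LPS, where its count over all genes was within 1.5-fold of that of edgeR. Under the replicate block 6 rose and 4 fell without LPS, where the block called 12.1% of all genes higher and 11.5% lower. With LPS 7 rose and 3 fell under the block, where it called 15.2% and 13.0%. CLTB passed with the block in both states, at 0.25 in each (edgeR adjusted p = 0.0124 and 0.00487). The median log2 fold change was 0.09 without LPS and 0.08 with it. SH3GLB1, a BAR domain protein of endosomes and autophagy, had -0.43 (SE 0.104, adjusted p = 0.0318 by edgeR's quasi-likelihood test) and -0.40 (SE 0.0804, adjusted p = 0.0189), and lost the call without any 1 of the 3 shNT libraries in either state (edgeR adjusted p from 0.0659 to 0.122). With LPS it was also lost without shNR4A2 LPS 3 (0.0539). EPN1, a clathrin adaptor, had 0.42 (SE 0.122, adjusted p = 0.0631 by edgeR) and 0.43 (SE 0.0902, adjusted p = 0.0239), the former passing with the replicate block (adjusted p = 0.000462), by DESeq2 (0.0253), without a filter (0.00626), with all 18 libraries in 1 fit (0.014), with library totals (0.0442) and without shNR4A2 control 3 (0.0427), and the latter lost without shNT LPS 2 or 3 or shNR4A2 LPS 1 (adjusted p from 0.0719 to 0.125 by edgeR). In shNR4A3 cells EPN1 had 0.42 (SE 0.0896, adjusted p = 0.0115 by edgeR) and 0.46 (SE 0.0777, adjusted p = 0.00814), and shNR4A2 over shNR4A3 was 0.00 (SE 0.120) and -0.04 (SE 0.0834), without the steps between the lines seen for BIN1. The paralogs BIN2 and BIN3 had 0.12 (SE 0.0940) and 0.19 (SE 0.139) without LPS and 0.14 (SE 0.0836) and 0.17 (SE 0.103) with it, and neither passed. AMPH, the amphiphysin gene closest to BIN1 in kind, had 3, 0 and 1 counts in shNT control and 6, 6 and 14 in shNR4A2 control libraries and was too low to test.

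Of 28 tested genes of leptin receptor handling and the ESCRT sorting complexes, 0 passed in shNR4A2 over shNT without LPS by edgeR, with 5 at an unadjusted p under 0.05. Of 27 tested with LPS 0 passed by edgeR, with 7 at an unadjusted p under 0.05, and DESeq2 called 0 in both states. With the replicate block, which called 23.6% of all genes without LPS and 28.1% with it, 3 rose and 2 fell of 28 without LPS, and 5 rose and 3 fell of 27 with it. CHMP4B had 0.33 with LPS (SE 0.113, adjusted p = 0.12 by edgeR). It passed with the block (edgeR adjusted p = 2.27e-04), with all 18 libraries in 1 fit (0.0483) and without shNR4A2 LPS 2 (0.0452). The median log2 fold change of the list was 0.09 and 0.04.

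Of 31 tested genes of retromer, the WASH complex and the GTPase-activating proteins of RAB7, 4 rose and 2 fell without LPS, and 3 rose and 0 fell with it. With the replicate block 7 rose and 2 fell without LPS, where the block called 12.1% of all genes higher and 11.5% lower, and 10 rose and 1 fell with it, where it called 15.2% and 13.0%. The median log2 fold change was 0.07 and 0.08. RAB7B, a RAB GTPase of the path from endosomes to the Golgi, was at 5.20, 5.53 and 5.34 RPKM in shNT and at 11.3, 11.9 and 13.7 RPKM in shNR4A2 control libraries. With LPS it was at 2.74, 2.78 and 3.11 RPKM in shNT and 5.93, 5.07 and 8.24 RPKM in shNR4A2 libraries. For RAB7B the log2 fold change was 1.21 (SE 0.116, adjusted p = 1.84e-04 by edgeR's quasi-likelihood test) and 1.16 (SE 0.179, adjusted p = 0.00645), and it was kept with each library left out. In shNR4A3 it was 0.07 (SE 0.113) and 0.19 (SE 0.136), with libraries that overlapped those of shNT. TBC1D2, a further GTPase-activating protein for RAB7, went the other way from TBC1D5, with 2.59, 1.94 and 2.13 RPKM in shNT and 5.18, 5.24 and 5.54 RPKM in shNR4A2 control libraries. Its log2 fold change was 1.26 (SE 0.139, adjusted p = 4.00e-04 by edgeR) without LPS and 1.14 (SE 0.269, adjusted p = 0.0361) with it, the latter lost without any 1 of the LPS libraries but shNR4A2 LPS 3 (adjusted p from 0.0657 to 0.119 by edgeR). In shNR4A3 control cells TBC1D2 was also higher, by 0.67 (SE 0.161, adjusted p = 0.0232 by edgeR). SORL1, a sorting receptor and a cargo of retromer, rose in both knockdown lines. It had 1.24 (SE 0.198, adjusted p = 0.00390 by edgeR) and 1.38 (SE 0.199, adjusted p = 0.00457) in shNR4A2, and 0.87 (SE 0.136, adjusted p = 0.00166) and 1.01 (SE 0.175, adjusted p = 0.00986) in shNR4A3. TBC1D2B had -0.43 (SE 0.0939, adjusted p = 0.0188 by edgeR) without LPS, a call lost without 4 of the 6 libraries in turn (highest adjusted p 0.0846 by edgeR), and -0.10 (SE 0.131) with it, and in shNR4A3 it had -0.34 (SE 0.0915, adjusted p = 0.0422 by edgeR) without LPS. TBC1D15 did not pass, at -0.16 (SE 0.106) and -0.18 (SE 0.0926).

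Of 34 tested genes of the sestrins and of amino acid sensing by mTORC1, 0 rose and 1 fell in each state, with medians of 0.01 and -0.03. With the replicate block 1 rose and 2 fell without LPS, and 1 rose and 8 fell with it, where the block called 15.2% of all genes higher and 13.0% lower. The gene was LAMTOR5, a subunit of Ragulator, the complex that anchors the RAG GTPases and with them mTORC1 at the lysosome. It was at 26.0, 26.4 and 23.7 RPKM in shNT and 13.0, 11.3 and 10.9 RPKM in shNR4A2 control libraries, and at 30.4, 28.0 and 29.8 against 14.6, 10.8 and 11.4 RPKM with LPS. The libraries of shNR4A3 held 27.8, 25.5 and 24.7 RPKM without LPS. LAMTOR5 thus fell in shNR4A2 alone of the 2 lines, by 2.15-fold without LPS and 2.39-fold with it. LAMTOR5 had log2 fold changes of -1.11 (SE 0.109, adjusted p = 2.17e-04 by edgeR's quasi-likelihood test) and -1.26 (SE 0.122, adjusted p = 7.84e-04) in shNR4A2, kept with each library left out, and 0.03 (SE 0.0916) and -0.01 (SE 0.0826) in shNR4A3. Against shNR4A3 directly it was -1.14 (SE 0.115, adjusted p = 1.43e-04 by edgeR) and -1.24 (SE 0.125, adjusted p = 0.00238). The other sestrins did not follow SESN3, with SESN1 at 0.02 (SE 0.121) and -0.02 (SE 0.151) and SESN2 at -0.08 (SE 0.118) and -0.09 (SE 0.161) in shNR4A2 over shNT.

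**Figure D4:**
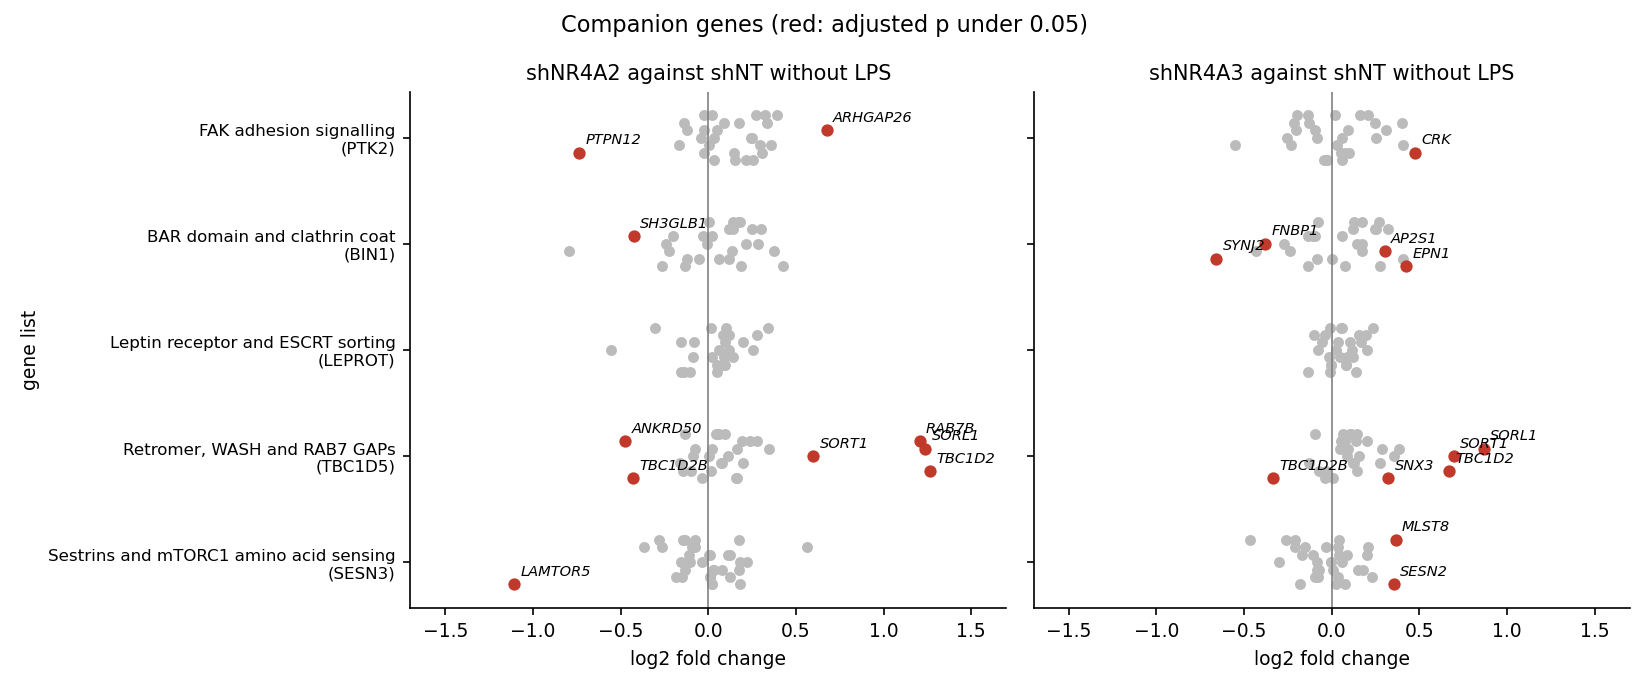
Log2 fold change over shNT without LPS of each tested gene of the 5 pathway lists in shNR4A2 (left) and shNR4A3 (right), 1 point per gene, in red and named where the edgeR adjusted p was under 0.05. LAMTOR5 at -1.11 and RAB7B at 1.21 are red in the left panel alone, while SORL1 and TBC1D2 are red in both.

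With LPS in shNT cells, 24.9% of all genes were called (11.6% higher, 13.3% lower), against which the counts of the lists are read. SESN2, the sestrin induced by stress through ATF4 and p53, rose in all 3 lines while SESN3 fell. It was at 16.0, 16.8 and 14.6 RPKM in shNT control and 29.1, 28.0 and 24.5 RPKM in shNT LPS libraries. Its log2 fold change by edgeR's quasi-likelihood test was 0.79 (SE 0.0955, adjusted p = 3.21e-05) in shNT, 0.78 (SE 0.173, adjusted p = 0.00697) in shNR4A2 and 0.87 (SE 0.121, adjusted p = 3.01e-04) in shNR4A3. FOXO1, a forkhead transcription factor, fell in shNT by 0.85 on the log2 scale (SE 0.193, adjusted p = 0.00495 by edgeR), and NPRL2, a GATOR1 subunit, fell by 0.55 (SE 0.143, adjusted p = 0.0122 by edgeR), not passing without shNT control 1 (0.0533). In the sestrin list 4 of 34 genes rose and 3 fell. Of the retromer list 3 of 31 rose and 6 fell, RAB7B by 0.89 (SE 0.114, adjusted p = 5.27e-05 by edgeR) and TBC1D2 by 1.10 (SE 0.172, adjusted p = 3.31e-04) among them. RAB7B and TBC1D2, higher in shNR4A2 cells, were thus lowered by LPS, whereas TBC1D5 was not called. CCZ1, part of the exchange factor of RAB7, had 0.60 (SE 0.144, adjusted p = 0.00750 by edgeR) but shares reads with its copy CCZ1B and is uncertain. Of the FAK list 3 of 29 rose and 3 fell, with GIT2 at -0.63 (SE 0.0974, adjusted p = 2.89e-04 by edgeR), CRK at 0.37 (SE 0.0916, adjusted p = 0.00841) and PTPN12 at 0.36 (SE 0.0921, adjusted p = 0.0105), the last not passing without shNT control 2 (0.0521) or with all 18 libraries in 1 fit (0.0676). Of the leptin receptor and ESCRT list 4 of 28 rose and 1 fell. TSG101 had 0.40 (SE 0.0927, adjusted p = 0.00566 by edgeR), CHMP4B 0.32 (SE 0.0830, adjusted p = 0.0107) and LEPROTL1 -0.40 (SE 0.0883, adjusted p = 0.00436). Of the BAR domain and clathrin list 1 of 28 rose, CLTB at 0.26 (SE 0.0885, adjusted p = 0.0482 by edgeR), and 0 fell. CLTB lost the call without any 1 library but shNT control 2 (edgeR adjusted p from 0.0727 to 0.182). With library totals in place of TMM, the rises of CRK, PTPN12, TSG101, CHMP4B and CLTB no longer passed, with the same sign, and falls of BIN2 (-0.40, adjusted p = 0.00173 by edgeR), PTK2B (-0.37, 0.00895), EPN1 (-0.33, 0.00881) and ARHGAP26 (-0.52, 0.0265) passed. With TMM and the replicate block, falls of BIN2 (-0.23, adjusted p = 0.0272 by edgeR), PTK2B (-0.20, 0.0413) and ARHGAP26 (-0.36, 0.0159) passed as well.

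**Figure D5:**
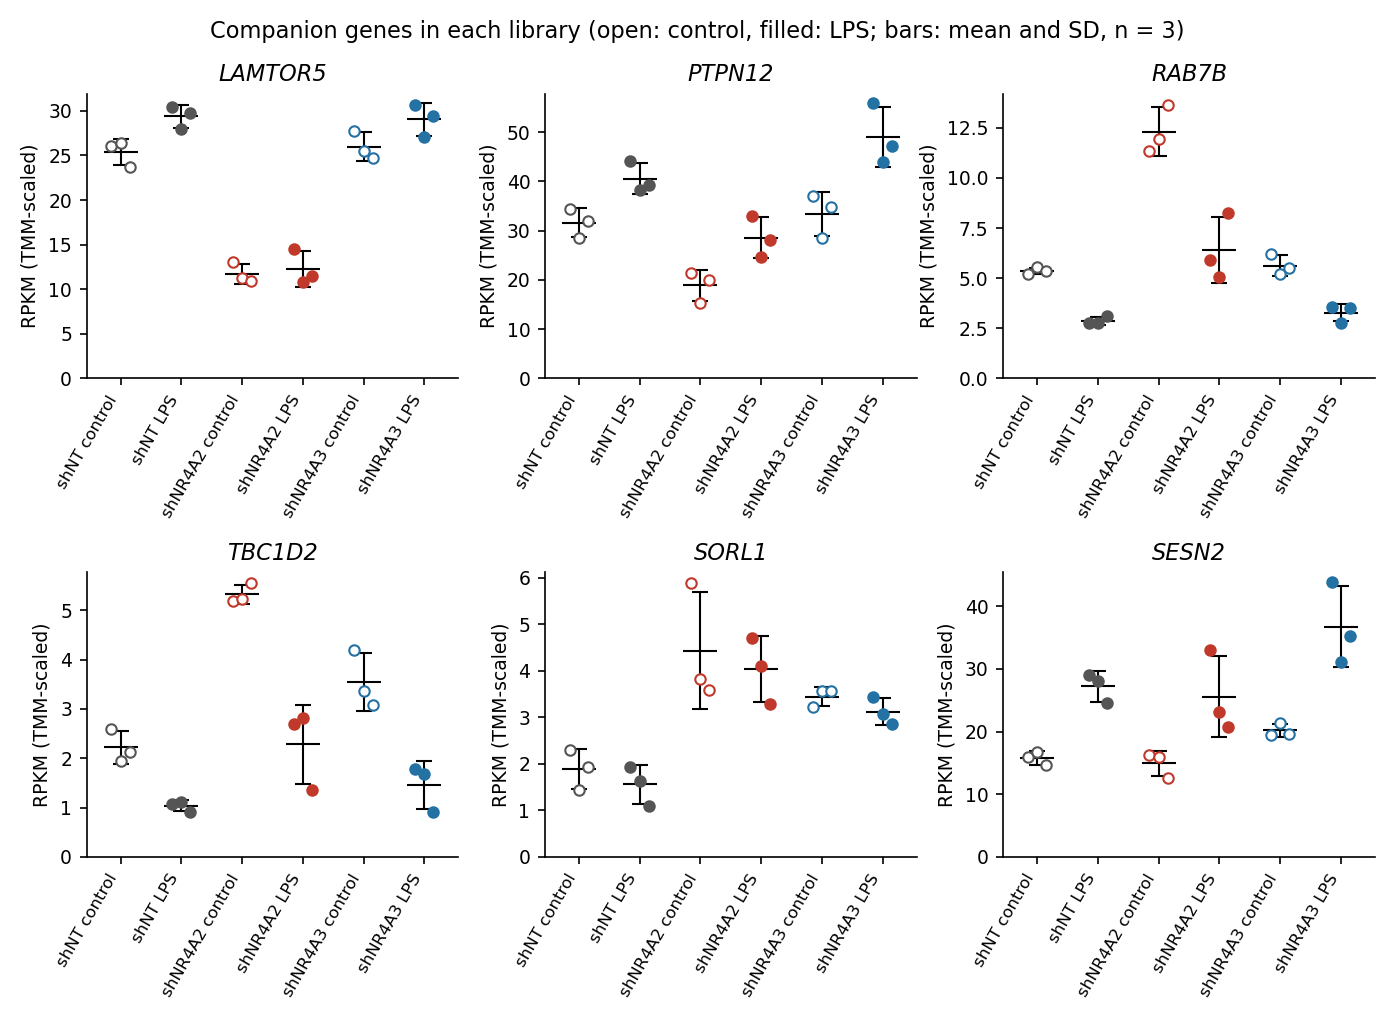
RPKM of 6 genes of the pathway lists in every library (open circles control, filled circles LPS, black bars the mean and SD of 3 libraries), each panel with its own axis from 0. LAMTOR5 and PTPN12 are lowest in shNR4A2, RAB7B and TBC1D2 are highest in shNR4A2 control cells and lower with LPS, and SESN2 is higher with LPS in each line.

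The genes beside the 5 on the chromosome were read for a shared change. SATB1, a chromatin organizer, overlaps TBC1D5 on the same strand with 211 exon bases in common, 1.9% of those of TBC1D5, and had -0.29 (SE 0.0859, adjusted p = 0.0677 by edgeR's quasi-likelihood test) without LPS and -0.34 (SE 0.165, adjusted p = 0.263) with it. SATB1-AS1, 207 bases from TBC1D5, had 0.24 (SE 0.101, adjusted p = 0.197 by edgeR) and 0.48 (SE 0.103, adjusted p = 0.0242), the 1 call among 14 neighbours tested, where 6.96% of all genes were called with LPS. It was the opposite in direction to TBC1D5. AP000787.1 is antisense to SESN3 with 93 exon bases in common, 0.9% of those of SESN3, and averaged 17.4 counts per library, while SESN3 had at least 1530 counts over the 3 libraries of each group. It had -0.67 (SE 0.311, adjusted p = 0.239 by edgeR) without LPS, the largest value in size among the neighbours and in the direction of SESN3, and -0.21 (SE 0.514, adjusted p = 0.853) with it. The neighbours of PTK2, ERICD and DENND3, had -0.26 (SE 0.344) and 0.00 (SE 0.146) without LPS, and those of BIN1, GYPC and ERCC3, -0.13 (SE 0.117) and 0.10 (SE 0.105). Those of SESN3, ENDOD1 and FAM76B, had 0.16 (SE 0.137) and 0.02 (SE 0.126). DNAJC6 and PDE4B beside LEPROT had -0.07 (SE 0.248) and -0.18 (SE 0.170), and PLCL2 and AC132807.2 beside or within TBC1D5 0.21 (SE 0.133) and -0.34 (SE 0.277).

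The genes with the most similar levels were found by Pearson's r of log2 CPM (library-size-scaled counts) over the 18 libraries among 16935 genes, as a description in which all points share the lines. For PTK2 they were AKR1C2 (r = 0.967), CLIC6 (0.963) and TMEM54 (0.961), of which AKR1C2 shares reads with close paralogs and is uncertain. For BIN1 they were SRD5A1 (0.966), CALCOCO2 (0.956) and BHLHE22 (0.956). BHLHE22 had the stepped pattern of BIN1, with a log2 fold change of 2.70 in shNR4A2 and 1.65 in shNR4A3 without LPS. For LEPROT they were HPRT1 (0.971), ERAP1 (0.970) and SEZ6L2 (0.969), and for TBC1D5 KCNQ5 (0.981), SEZ6L2 (0.967) and HNRNPUL1 (0.953). SEZ6L2 stood in both sets, at -1.69 in shNR4A2 and -0.06 in shNR4A3 without LPS. For SESN3 they were TMED10 (0.978), GNA13 (0.965) and CNOT11 (0.963). On log2(TPM + 1) the 3 nearest genes of PTK2, TBC1D5 and SESN3 kept 2 of their 3 names, those of BIN1 kept 1 and those of LEPROT kept 0.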

How the data were processed

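The authors deposited whole-number counts of reads per gene for each of the 18 libraries, not normalized, beside gene coordinates (GRCh38) and merged exon lengths. The submitters' processing notes name Trimmomatic 0.36, STAR 2.5.2b and featureCounts of Subread 1.5.2, and the annotation release and the strand setting are not given in the sources used here. Without strand, reads of a gene and its antisense partner cannot be told apart. Gene symbols came from GENCODE 29 for 56898 genes. No 2 libraries were identical, and 1.05% to 2.19% of counts were mitochondrial.

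Counts were compared in pairs of groups (6 libraries, 12 for the interaction) with edgeR 4.0.16 in R 4.3.3 by filterByExpr at its defaults, TMM, the quasi-likelihood F test and Benjamini-Hochberg adjustment over all genes tested, with calls at an adjusted p under 0.05. All 5 members passed the filter in every comparison. The procedure was tested on simulated data. The members and the lists were chosen with earlier results of these data known. Named were the members, the targeted genes, given paralogs, up to 3 called genes of each list with the largest change in shNR4A2 over shNT in each state and with LPS in shNT, the 3 genes most correlated with each member, and overlapping or nearest tested genes. Alternatives were DESeq2 1.42.0, its size factors (RLE) in edgeR, no filter, a block for replicate number, 1 fit of all 18 libraries and each library left out. Library totals in place of TMM, the alternatives for single genes of the lists and the block for the lists were added after the data were seen.

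Residuals of libraries with the same replicate number correlated at 0.159 to 0.533 in every pair, which treats the numbers as pairs, apart from LPS against control in shNT (lowest 0.0598) and the interaction (lowest 0.0174). The labels do not say what a number marks. P-values measure the spread between these libraries. The paper's own tables of differences were not used here.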

Additional observations from a re-analysis of the deposited data

Results flagged for a closer look

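In a direct test of shNR4A2 over shNR4A3 by edgeR's quasi-likelihood test with Benjamini-Hochberg adjustment, which called 3.08% of all genes without LPS and 2.33% with it, 1 FAK gene was higher and 2 lower of 29 in each state. Of 31 retromer genes 2 were higher and 1 lower without LPS and 1 higher with it, and of 34 sestrin genes 2 were lower without LPS and 1 with it. Of the genes called, 5 were named by the rule on list genes. The others, named here after their values were seen, were BCAR1, at 0.85 (adjusted p = 0.0246 by edgeR) without LPS and 0.96 (adjusted p = 0.00903) with it, ANKRD50, at -0.61 (adjusted p = 0.0208), and MLST8, at -0.46 (adjusted p = 0.0372), both without LPS. LAMTOR5 was lower in shNR4A2, at a log2 fold change of -1.14 (SE 0.115, adjusted p = 1.43e-04 by edgeR) without LPS and -1.24 (SE 0.125, adjusted p = 0.00238) with it, and passed with each library left out in turn. RAB7B was higher, at 1.14 (SE 0.127, adjusted p = 2.89e-04 by edgeR) and 0.97 (SE 0.192, adjusted p = 0.0396). PTPN12 was lower, at -0.81 (SE 0.137, adjusted p = 0.00548 by edgeR) and -0.77 (SE 0.129, adjusted p = 0.0224). Without LPS both passed with each library left out. With LPS, RAB7B was lost in 5 of the 6 leave-outs (highest adjusted p 0.143 by edgeR) and PTPN12 in 4 of 6 (0.0891). CRK, an adaptor of FAK signalling, was at -0.50 (SE 0.123, adjusted p = 0.0472 by edgeR) and -0.57 (SE 0.10, adjusted p = 0.0298), and was lost in 6 of 6 leave-outs without LPS (highest 0.194) and 5 of 6 with it (0.14). TBC1D2 was higher in shNR4A2 without LPS, at 0.60 (SE 0.145, adjusted p = 0.0449 by edgeR), and was lost in 5 of 6 leave-outs (highest 0.212) and with all 18 libraries in 1 fit (0.174). With the replicate block, which called 1800 genes in all without LPS and 3666 with it, LEPR (adjusted p = 0.00837 and 0.00577 by edgeR), SESN2 (0.00461 and 2.03e-04) and SH3GLB1 (0.0138 and 0.00172) also passed as lower in shNR4A2 in both states. SESN2 also passed without a filter (edgeR adjusted p = 0.0449 and 0.00124), by DESeq2 without LPS (0.0326) and in 1 fit with LPS (0.0429). SH3GLB1 also passed in 1 fit (edgeR adjusted p = 0.0356 and 0.0452). With LPS the block further called TBC1D2 (0.00356), SORL1 (0.00155), BIN2 (0.00409), PTK2B (0.00448) and ARHGAP26 (0.0114) as higher. The 5 members are left out here, since the comparison was used to choose them. LAMTOR5, RAB7B, PTPN12 and TBC1D2 had been named for calls that include shNR4A2 over shNT. That comparison shares the shNR4A2 libraries, so that their tests here are not independent of it.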

How the results depend on the processing

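The direction of all 5 members was kept over shNT in shNR4A2 under every alternative run. That is a description and no support, since the members were chosen by this comparison in the same libraries. The fall of SESN3 with LPS passed under every alternative but the leave-outs, where its log2 fold change ran from -0.65 to -0.42 in shNR4A2, with 4 of 6 not passing, and from -0.49 to -0.32 in shNR4A3, with 4 of 6 not passing. With library totals, LEPROT moved from 0.06 to 0.0044 in shNR4A3 over shNT with LPS, and for LPS from -0.01 to -0.18 in shNT, -0.16 to -0.38 in shNR4A2 and -0.02 to -0.22 in shNR4A3, and passed in none of the LPS comparisons.

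Counts of genes called moved more. Without a filter on low counts, shNR4A2 over shNT gave 1611 genes without LPS and 1843 with it, shNR4A3 over shNT with LPS 1839, shNR4A2 over shNR4A3 838 and 1102, and the interaction 29. DESeq2 gave 804 for shNR4A2 over shNR4A3 with LPS and 3 for the interaction, and all 18 libraries in 1 fit gave 1691 for shNR4A2 over shNT with LPS, 1032 for shNR4A2 over shNR4A3 with LPS and 4601 for LPS in shNR4A2. In the lists, DESeq2 called 3 BAR domain and clathrin genes in shNR4A2 over shNT without LPS, 5 FAK genes with it, and 2 BAR domain and clathrin genes for LPS in shNT, as did RLE. In these comparisons the counts over all genes by DESeq2 and by RLE were within 1.5-fold of the main edgeR counts. Leaving out 1 library gave 517 (without shNT control 3) to 1128 genes in shNR4A2 over shNT without LPS and 342 (without shNT LPS 2) to 1477 with it. It gave 649 (without shNT control 3) to 975 and 383 (without shNT LPS 2) to 1693 for shNR4A3 over shNT, 249 (without shNR4A3 control 1) to 470 and 94 (without shNR4A3 LPS 1) to 217 for shNR4A2 over shNR4A3, and 0 to 8 for the interaction. For LPS it gave 3033 to 3461 genes in shNT, 2113 to 3375 in shNR4A2 and 3136 to 4863 in shNR4A3. The cause was not tested.

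With the replicate block, 3733 and 4385 genes were called for shNR4A2 over shNT, 2267 and 3401 for shNR4A3 over shNT, 1800 and 3666 for shNR4A2 over shNR4A3 (each without and with LPS), 4751 for LPS in shNR4A2 and 8 for the interaction. The blocked counts in the lists for shNR4A2 over shNT without LPS, where the block called 23.6% of all genes, were 13 FAK, 10 BAR domain and clathrin, 5 leptin receptor and ESCRT and 3 sestrin genes. With LPS, where it called 28.1%, they were 13, 10, 8 and 9, and 11 for retromer. For LPS in shNT they were 5 BAR domain and clathrin and 9 leptin receptor and ESCRT genes, where the block called 32.0% of all genes (14.6% higher, 17.4% lower). The block changed no call of a member in the LPS response. No alternative turned the direction of a called value.

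With 3 libraries a group, changes of a small size could not be seen, and PTK2 in shNT rests on few counts. Each target has 1 line in these data, so that the knockdown cannot be told apart from other differences between the lines.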
